A study of Mus musculus with 27 samples.

Results

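The expression of 10 genes of autophagy and the lysosome was followed across the livers of 27 mice. The genes were Ulk1, Becn1, Ambra1, Map1lc3a, Map1lc3b, Gabarapl1, Sqstm1, Rab7, Lamp2 and Tfeb. They were found in the count table by the Ensembl identifiers that carry these symbols, 10 of the 55414 genes listed, and all 10 were among the 14114 genes with enough reads to be tested (a mean of at least 10 read pairs per library). Every mouse was a Balb/c female, 8 weeks old, and the RNA came from total liver. The 13 mice without fibrosis were injected intraperitoneally with olive oil and formed 4 groups. The control group (4 mice) received PBS into the tail vein, the 4MU group (3 mice) received 4-methylumbelliferone, an inhibitor of hyaluronan synthesis, by daily gavage at 600 mg/kg, and the siLuc-LNP and siHAS2-LNP groups (3 mice each) received lipid nanoparticles that carried siRNA against luciferase or against hyaluronan synthase 2. The nanoparticles were injected into the tail vein 2 times a week, first at 1 mg/kg and then at 0.5 mg/kg. The other 14 mice were given carbon tetrachloride (CCl4) for 2 weeks, which injures hepatocytes and brings about fibrosis, alone (CCl4, 2 mice) or together with 4MU, siLuc-LNP or siHAS2-LNP (4 mice each). For the CCl4 group the labels name only the injection of CCl4, so whether it shared the handling of the control group cannot be told from them. 4MU and siRNA were begun before the first dose of CCl4.

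Autophagy delivers parts of the cytoplasm to the lysosome for breakdown, and in the liver it supplies substrates during fasting and removes damaged mitochondria, protein aggregates and lipid droplets. ULK1 starts the process, the complex around Beclin 1 nucleates the membrane, proteins of the ATG8 family (the LC3 and GABARAP branches) are attached to the growing membrane and bind cargo receptors such as p62, and RAB7 and the LAMP proteins serve the meeting of the autophagosome with the lysosome. TFEB is a transcription factor of lysosomal and autophagy genes. The amount of a transcript says nothing on the flux through the pathway, and the LC3 and p62 proteins are themselves degraded in it.

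In control livers the most abundant of these transcripts per kilobase of annotated exon was Gabarapl1, at 101.7 ± 16.1 CPM per kilobase (mean ± SD, n = 4). CPM are read pairs of a gene per 1000000 of the library total, which was scaled by the trimmed mean of M values (TMM). Sqstm1 (50.3 ± 7.24) and Lamp2 (49.9 ± 6.17) followed and did not differ beyond their spread, and then came Map1lc3a (34.2 ± 1.82), Rab7 (21.6 ± 0.832), Map1lc3b (13.2 ± 2.32) and Ulk1 (8.14 ± 2.56). Becn1 (4.03 ± 0.327) and Ambra1 (3.72 ± 0.264) were close to each other, and Tfeb was lowest at 1.47 ± 0.345 CPM per kilobase. The order at the top depends on the length used. Per kilobase of the longest transcript, Lamp2 came first with 156 CPM, ahead of Gabarapl1 with 113 CPM. Total read pairs per library were between 7044386 and 29425937, and the lowest count of any of the 10 genes in any library was 84, for Tfeb.

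Windows around start sites of the 4 genes that later separated CCl4 + 4MU from CCl4 are shown, 1 per gene, so that the matches marked in them can be located. They are RefSeq windows of the build GRCm38.p6, 250 bases before and 50 after the start site, in lower case, with a match to the core of the antioxidant response element (TGACNNNGC) in capitals. The windows are chr6:129532942-129533241 (plus strand) for Gabarapl1, chr2:91729888-91730187 (plus strand) for Ambra1, chr8:121590188-121590487 (plus strand) for Map1lc3b and chr6:88044968-88045267 (minus strand) for Rab7.
Gabarapl1: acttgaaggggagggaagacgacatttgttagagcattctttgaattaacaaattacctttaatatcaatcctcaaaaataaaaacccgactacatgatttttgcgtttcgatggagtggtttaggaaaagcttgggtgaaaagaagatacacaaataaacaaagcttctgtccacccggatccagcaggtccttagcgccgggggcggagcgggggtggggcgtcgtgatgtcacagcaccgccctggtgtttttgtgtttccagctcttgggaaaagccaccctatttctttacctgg
Ambra1: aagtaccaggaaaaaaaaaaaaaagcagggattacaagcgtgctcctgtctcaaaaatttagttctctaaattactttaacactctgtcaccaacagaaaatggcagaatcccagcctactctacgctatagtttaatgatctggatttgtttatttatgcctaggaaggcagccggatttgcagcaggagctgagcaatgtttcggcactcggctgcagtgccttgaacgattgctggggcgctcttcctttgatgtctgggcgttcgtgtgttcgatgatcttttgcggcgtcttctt
Map1lc3b: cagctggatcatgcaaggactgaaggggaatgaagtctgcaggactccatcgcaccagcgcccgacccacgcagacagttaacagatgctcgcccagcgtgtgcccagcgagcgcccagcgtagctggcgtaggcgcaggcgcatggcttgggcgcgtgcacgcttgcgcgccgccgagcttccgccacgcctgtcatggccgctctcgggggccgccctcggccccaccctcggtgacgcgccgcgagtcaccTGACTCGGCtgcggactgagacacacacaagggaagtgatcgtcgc
Rab7: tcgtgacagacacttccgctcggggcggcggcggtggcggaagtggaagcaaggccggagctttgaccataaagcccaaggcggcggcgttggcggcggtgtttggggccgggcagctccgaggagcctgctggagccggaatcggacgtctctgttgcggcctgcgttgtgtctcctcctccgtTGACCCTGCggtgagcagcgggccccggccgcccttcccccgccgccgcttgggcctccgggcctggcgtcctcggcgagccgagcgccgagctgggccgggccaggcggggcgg
Windows were found for 8 of the 10 genes, 11 windows in all, and no entry was used for Map1lc3a and Becn1. Both strands were searched. The E-box CACGTG, to which TFEB binds, was in 0 of the 11 windows and in 7.15% of the 32851 windows of all genes, and the longer palindrome TCACGTGA was in 0 and 0.974%. The antioxidant response element core was in 2 of 11 and in 12.4% of all windows. The match in Map1lc3b began at position 4 relative to the start site, and that in Rab7 at position -65. The forkhead letters TGTTTAC were in 0 of 11 (3.65% of all windows), the ATF4 letters TGATGNAA in 0 (3.97%), the cyclic AMP response element TGACGTCA in 0 (1.79%), GTCACGTG, which overlaps with the E-box, in 0 (2.25%) and the TATA letters TATAAA in 2, for Rab7 and Sqstm1 (13.6%). Neither of these 2 windows is printed. That of Rab7 is a further window, chr6:88045221-88045520, with the letters on the opposite strand and no match to the antioxidant response element core. The matches are a description of these letters in these windows.

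Facts of all libraries set the frame for the 10 genes. Has2, the target of siHAS2, had 2 read pairs in 1 CCl4 library, 1 in 1 CCl4 + siLuc-LNP library and 0 in the other 25 libraries, so its knockdown was not detectable at this depth. The hepatocyte markers Alb, Ttr, Apoa1, Hnf4a, Cyp2e1 and Tat summed to between 162840 and 198553 CPM in control, to 69267 and 122260 CPM in the CCl4 mice, to between 143425 and 171332 CPM in CCl4 + 4MU, between 98182.9 and 143699 CPM in CCl4 + siLuc-LNP and between 105511 and 159496 CPM in CCl4 + siHAS2-LNP. Most of each sum was Alb, with 130252 to 172725 CPM in control and 58084.6 and 100405 CPM in CCl4. Apoa1 and Hnf4a were not called lower in CCl4 against control. In CCl4 against control, 4 of these 6 markers were lower, 7 of 8 monocyte and macrophage markers (283 to 338 CPM in sum against 91.3 to 180 CPM), 5 of 6 stellate cell markers (403 to 656 against 41.6 to 75.9 CPM) and 4 of 4 proliferation markers (244 to 508 against 5.19 to 10.04 CPM) were higher, and 3 skeletal muscle markers were at or near 0 in every group. Whether the cell types account for any difference in the 10 genes was not tested, and in bulk tissue fewer cells of a type and less RNA per cell cannot be told apart. TMM factors were 0.816 to 1.32. The lowest was that of CCl4 + siLuc-LNP mouse 3. The highest was that of CCl4 mouse 2, beside 1.13 for CCl4 mouse 1 and 0.895 to 0.945 in control. When libraries were scaled by their totals instead, the median log2 fold change of all genes moved to 0.39 in CCl4 against control, 0.16 in the mean of the arms, -0.30 in CCl4 + 4MU against CCl4, -0.16 in CCl4 + siHAS2-LNP against CCl4 and -0.23 in CCl4 + siLuc-LNP against CCl4, and under TMM it was within 0.04 of 0. The genes called higher and lower were 2537 and 2268 under TMM and 4936 and 915 under scaling by totals in CCl4 against control, 3711 and 3608 against 5386 and 1838 in the mean of the arms, 1168 and 1412 against 488 and 3220 in CCl4 + 4MU against CCl4, and 1003 and 1035 against 587 and 1459 in CCl4 + siHAS2-LNP against CCl4. The changes below are those under TMM, relative to the typical gene.

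Transcripts of Gabarapl1, Map1lc3a, Sqstm1, Lamp2 and Ulk1 were lower in CCl4-treated livers. The first comparison set the 4 CCl4 groups against their 4 olive oil counterparts, averaged over the arms, in edgeR (quasi-likelihood F-test, p-values adjusted by Benjamini and Hochberg over all 14114 genes). Of the 10 genes, 5 were lower and 0 higher. The background was wide, since 51.9% of all genes were called and 25.6% were called lower, and the median log2 fold change was -0.27 over the 10 genes and -0.02 over all genes.

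Gabarapl1 (ENSMUSG00000030161; GRCm39 chromosome 6, 129509725 to 129520544), a member of the GABARAP branch, changed most of the 10. It had 415, 369, 295 and 426 CPM in the control mice, 353, 364 and 474 CPM with 4MU, 432, 343 and 393 CPM with siLuc-LNP and 303, 312 and 340 CPM with siHAS2-LNP. With CCl4 the values were 115 and 75.9 CPM, with CCl4 + 4MU 229, 226, 155 and 220 CPM, with CCl4 + siLuc-LNP 160, 152, 192 and 71.1 CPM, and with CCl4 + siHAS2-LNP 243, 189, 165 and 228 CPM. Each of the 14 CCl4-treated livers lay below each of the 13 others. The mean fold change over the arms was -1.24 on the log2 scale (SE 0.124, adjusted p = 9.33e-09, edgeR), 2.37-fold lower, and it ranged from -1.32 to -1.09 over 33 other settings. About 31% of its annotated exon bases are shared with a non-coding gene on the opposite strand, 1700101I11Rik, and the strand setting of the counting is not given in the sources used here, so reads of the pair may not be separated.

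Map1lc3a (chromosome 2, 155118217 to 155119998), which encodes an LC3 protein, had 48.6, 44.6, 43.4 and 43.7 CPM in control and 19.9 and 18.0 CPM in the CCl4 mice. The values were 25.7, 38.0, 25.6 and 43.6 CPM in CCl4 + 4MU, 14.4, 30.5, 28.6 and 12.7 CPM in CCl4 + siLuc-LNP and 37.7, 20.1, 20.95 and 19.5 CPM in CCl4 + siHAS2-LNP. The other groups without CCl4 lay between 44.0 and 56.2 CPM, so that only 1 liver of CCl4 + 4MU reached the lowest control. Over the arms it fell by 0.99 on the log2 scale (SE 0.133, adjusted p = 1.21e-06, edgeR). The values within CCl4 + 4MU and CCl4 + siLuc-LNP spread over more than those of the control group.

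Sqstm1 (chromosome 11, 50089572 to 50107684) encodes p62, which carries ubiquitinated cargo to LC3. It had 471, 410, 438 and 332 CPM in control and 273 and 203 CPM in the CCl4 mice. It had 350, 258, 329 and 483 CPM in CCl4 + 4MU, 243, 337, 297 and 214 CPM in CCl4 + siLuc-LNP, and 320, 291, 219 and 332 CPM in CCl4 + siHAS2-LNP. The treated groups reached into the control range, and 4MU alone held the highest value of all, 632 CPM. Over the arms it fell by 0.61 (SE 0.118, adjusted p = 0.000152, edgeR). The genes Mrnip and Mgat4b on the opposite strand share 17.2% and 1.72% of its exon bases.

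Lamp2 (chromosome X, 37488520 to 37545340), a main protein of the lysosomal membrane that is also needed for chaperone-mediated autophagy, had 576, 618, 591 and 748 CPM in control and 479 and 367 CPM with CCl4. It had 485, 547, 433 and 336 CPM in CCl4 + 4MU, between 346 and 506 CPM in CCl4 + siLuc-LNP and between 450 and 572 CPM in CCl4 + siHAS2-LNP. No CCl4-treated liver reached the lowest control, while siLuc-LNP without CCl4, at 455, 561 and 517 CPM, overlapped with them. Over the arms it fell by 0.41 (SE 0.0867, adjusted p = 0.000358, edgeR), and under scaling by totals by 0.23 with an adjusted p of 0.0557.

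Ulk1 (chromosome 5, 110931496 to 110957995), the kinase that starts autophagy, had 88.7, 48.1, 56.2 and 49.4 CPM in control, 47.0 and 48.9 CPM with CCl4 and 31.7, 44.6, 34.0 and 35.5 CPM with CCl4 + siLuc-LNP. It had 54.1, 41.4, 31.3 and 42.1 CPM with CCl4 + siHAS2-LNP and 74.2, 56.2, 54.4 and 84.1 CPM with CCl4 + 4MU. The CCl4 + 4MU mice thus lay within the control range, while 4 of 4 CCl4 + siLuc-LNP mice and 3 of 4 CCl4 + siHAS2-LNP mice lay below it. The change over the arms was -0.32 (SE 0.119, adjusted p = 0.0264, edgeR), and it lost the threshold under 8 of 33 other settings, among them without CCl4 mouse 1 (adjusted p = 0.0610) and without CCl4 mouse 2 (adjusted p = 0.0507).

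The 5 genes that were not called over the arms were Becn1, Ambra1, Map1lc3b, Rab7 and Tfeb. Becn1 (chromosome 11, 101176769 to 101193122), the gene of Beclin 1, was at 27.5 to 32.01 CPM in control, 35.5 and 37.2 CPM with CCl4, 28.97 to 32.4 CPM with CCl4 + 4MU, 28.2 to 35.1 CPM with CCl4 + siLuc-LNP and 27.8 to 35.5 CPM with CCl4 + siHAS2-LNP, and between 25.5 and 37.2 CPM over all 27 livers, and its change was 0.06 (95% confidence interval -0.06 to 0.19). Map1lc3b changed by 0.04 (-0.21 to 0.29), Rab7 by -0.10 (-0.22 to 0.01), Ambra1 by -0.17 (-0.32 to -0.01, adjusted p = 0.0741) and Tfeb by -0.23 (-0.43 to -0.02, adjusted p = 0.0668). A change of 0.5 on the log2 scale lay outside each of these intervals under TMM. Exons of Becn1 share 43.8% of their bases with Cntd1 on the opposite strand, so its counts are uncertain.

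**Figure D1:**
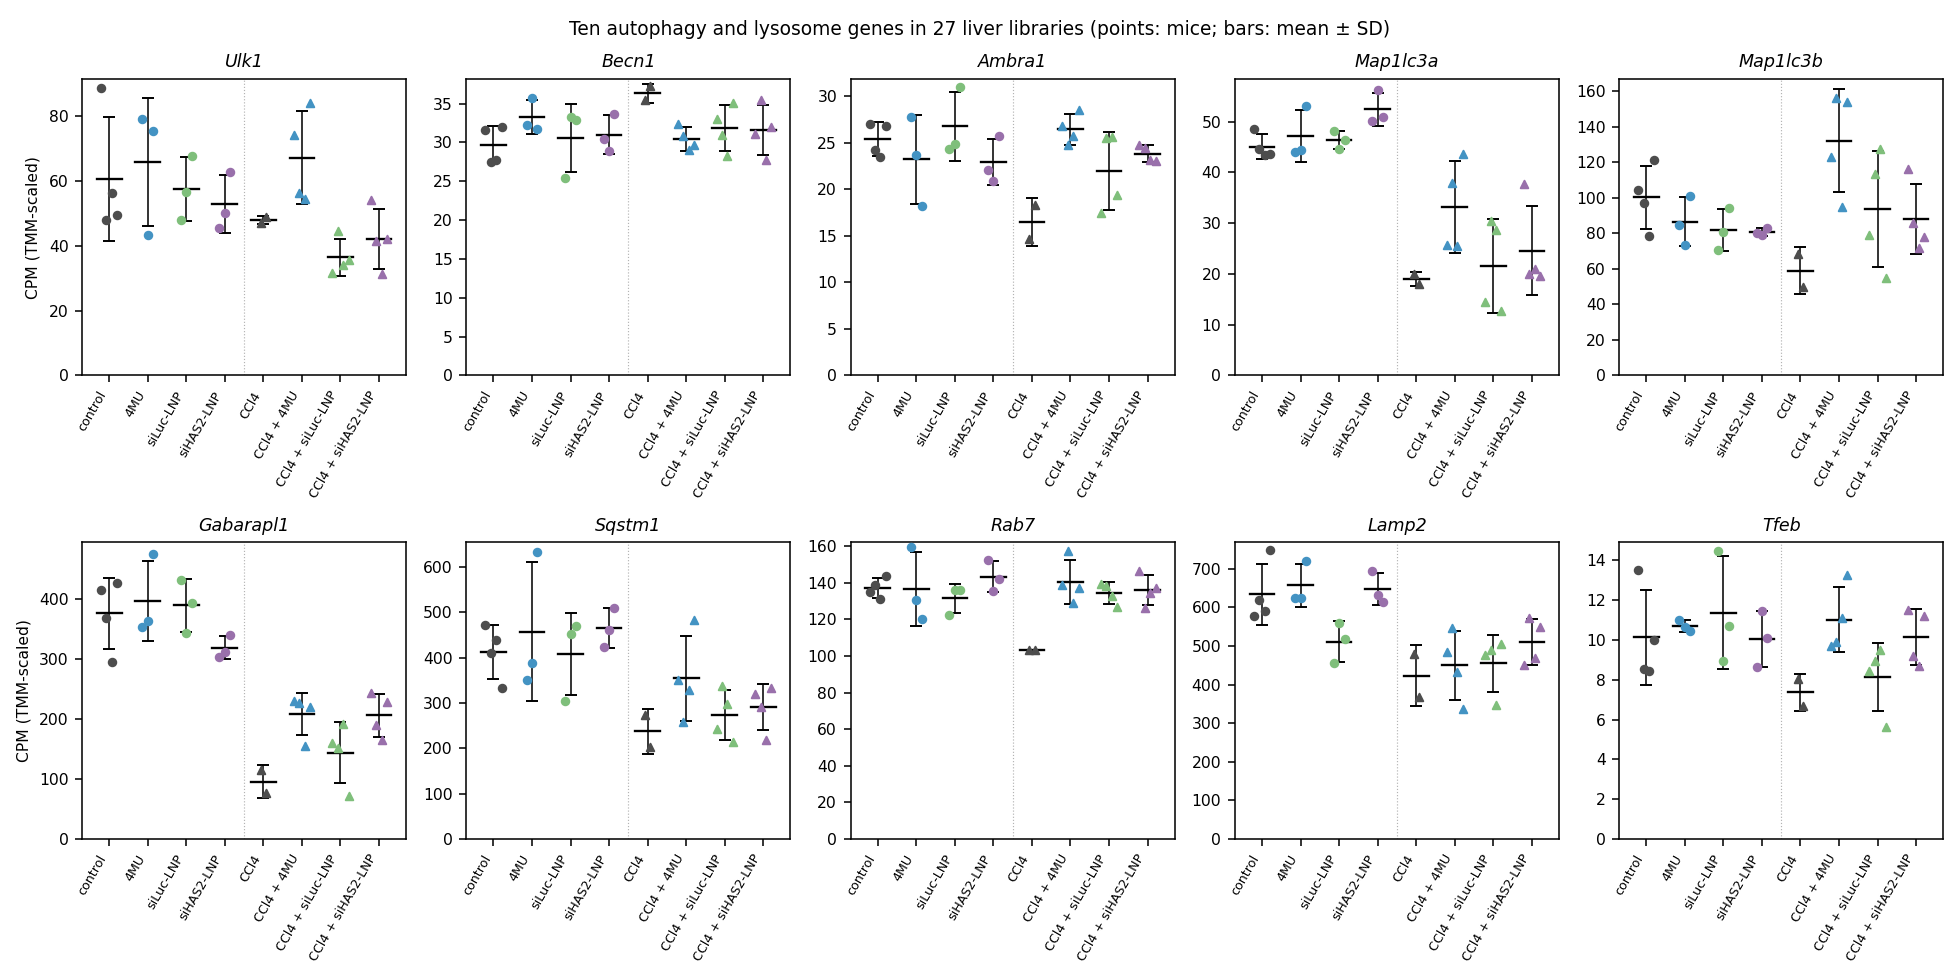
Normalised expression of the 10 genes in each of the 27 livers, in CPM, with 1 panel per gene, points for mice and bars for the mean and SD of each of the 8 groups. Every CCl4-treated liver lies below every other liver for Gabarapl1, from 71.1 to 243 CPM against 295 to 474 CPM.

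The CCl4 group alone, the reference for all treated groups, was lower than control in 7 of the 10 genes and higher in 0, with 34.0% of all genes called and 16.1% called lower. The median was -0.60 over the 10 genes and -0.02 over all genes. Of the 10, Gabarapl1, Ambra1 and Rab7 also stand in a list of genes higher than in these CCl4 libraries under both 4MU and siHAS2-LNP. A low value in CCl4 favours a place in that list, so the count of 7 and this median are not independent of it. Gabarapl1 fell by 1.98 (SE 0.294, adjusted p = 1.46e-05, edgeR), 3.94-fold, and Map1lc3a fell by 1.25 (SE 0.305, adjusted p = 0.00283, edgeR). Sqstm1 fell by 0.80 (adjusted p = 0.0235), Map1lc3b by 0.76 (adjusted p = 0.0318), Ambra1 by 0.62 (adjusted p = 0.00743), Lamp2 by 0.58 (adjusted p = 0.0230) and Rab7 by 0.41 (adjusted p = 0.0166). Ulk1 (-0.34), Tfeb (-0.46) and Becn1 (0.29, adjusted p = 0.0868) did not pass.

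Ambra1 (chromosome 2, 91560294 to 91749195), whose product binds Beclin 1 and promotes nucleation, had 27.02, 24.2, 23.5 and 26.8 CPM in control and 14.7 and 18.3 CPM in the CCl4 mice. Map1lc3b (chromosome 8, 122317100 to 122325499), the LC3 gene most used as a marker of autophagosomes, had 104, 97.3, 78.5 and 121 CPM against 68.4 and 49.7 CPM. Rab7 (chromosome 6, 87976083 to 88022295), the small GTPase of late endosomes, had 135, 139, 131 and 144 CPM against 103 and 103 CPM. In these 3 genes the CCl4 livers lay below every control liver, and Rab7 had the smallest difference. The 2 groups did not overlap in 9 of the 10 genes, Becn1 being higher in CCl4. The share of all genes without overlap was not counted, so this separation is a description only.

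The group holds 2 mice, and the number of genes called depended on them. Without CCl4 mouse 2, which had the lower Gabarapl1 value, 2 of the 10 genes were called, Gabarapl1 (-1.69, adjusted p = 0.00350) and Ambra1 (-0.77, adjusted p = 0.0217), and of all genes 2154 in place of 4805. In such a fit the lone CCl4 liver is assumed to vary like the other groups. Under scaling by totals 2 of the 7 were still called lower, Gabarapl1 (-1.59) and Map1lc3a (-0.84), Rab7 was at 0.0029 (adjusted p = 0.990), and Becn1 was called higher (0.71, adjusted p = 0.00251, edgeR). Becn1 was then also called higher over the arms (0.24, adjusted p = 0.0149). Gabarapl1 passed under all 12 other settings.

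With CCl4 + 4MU against CCl4 the question was whether the treatment moved these genes in injured liver. Of the 10 genes, 4 were higher and 0 lower, where 18.3% of all genes were called and 8.28% were called higher. The median was 0.58 over the 10 genes and 0.04 over all genes. Of the 10, Gabarapl1, Ambra1 and Rab7 also stand in a list drawn up from these same libraries as higher under both 4MU and siHAS2-LNP. The count of 4 beside 8.28% and this median are therefore not independent evidence on the 10 genes. The libraries of CCl4 serve here and in the next comparisons as the shared reference, so an error in them returns in each.

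Map1lc3b had 123, 157, 95.1 and 154 CPM in CCl4 + 4MU against 68.4 and 49.7 CPM in CCl4. It rose by 1.16 (SE 0.277, adjusted p = 0.00644, edgeR), 2.24-fold, and 3 of the 4 livers also lay above the highest control. Gabarapl1 rose by 1.12 (SE 0.280, adjusted p = 0.00837, edgeR), with 155 to 229 CPM against 115 and 75.9 CPM. All 4 livers were above both CCl4 livers and below every control liver.

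Ambra1 had 26.8, 24.7, 25.7 and 28.5 CPM against 14.7 and 18.3 CPM and rose by 0.68 (SE 0.172, adjusted p = 0.00943, edgeR). Rab7 had 139, 157, 129 and 137 CPM against 103 and 103 CPM and rose by 0.44 (SE 0.129, adjusted p = 0.0198, edgeR). The values of both genes overlapped with those of the control mice. Map1lc3a (0.81, adjusted p = 0.0604), Tfeb (0.58, adjusted p = 0.0737), Sqstm1 (0.58, adjusted p = 0.124), Ulk1 (0.49, adjusted p = 0.198), Becn1 (-0.26, adjusted p = 0.170) and Lamp2 (0.09, adjusted p = 0.772) did not pass.

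Without CCl4 mouse 2 none of these 4 passed (Map1lc3b 0.92 with an adjusted p of 0.166, Gabarapl1 0.83 with 0.211, Ambra1 0.82 with 0.0635 and Rab7 0.41 with 0.175), and of all genes 177 were called in place of 2580. Without CCl4 mouse 1 Map1lc3b (1.40, adjusted p = 0.0130) and Gabarapl1 (1.44, adjusted p = 0.0110) passed and Ambra1 and Rab7 did not. Under scaling by totals Map1lc3b (0.83) and Gabarapl1 (0.81) passed, Ambra1 (0.33, adjusted p = 0.174) and Rab7 (0.10, adjusted p = 0.639) did not, and Becn1 was called lower (-0.59, adjusted p = 0.0158). Rab7 lost the threshold under 6 of 12 other settings in all. The hepatocyte markers moved with these genes, 4 of 6 being higher in CCl4 + 4MU than in CCl4, and the 4 proliferation markers were lower. Their part in the result was not tested.

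With CCl4 + siHAS2-LNP against CCl4, 3 of the 10 genes were higher and 0 lower, where 14.4% of all genes were called and 7.11% were called higher. The median was 0.39 over the 10 genes and 0.02 over all genes. Gabarapl1 had 243, 189, 165 and 228 CPM and rose by 1.11 (SE 0.280, adjusted p = 0.0110, edgeR), 2.16-fold. Ambra1 had 24.7, 24.5, 23.1 and 23.0 CPM and rose by 0.53 (SE 0.172, adjusted p = 0.0410, edgeR), and Rab7 had 146, 126, 135 and 137 CPM and rose by 0.40 (SE 0.129, adjusted p = 0.0403, edgeR). In each of these genes the 4 livers lay above both CCl4 livers. The groups did not overlap in 5 of the 10 genes, and the share of all genes without overlap was not counted. These genes also stand in the list that was drawn up from these same libraries as higher under both treatments, and they were among the 10 with that known. Their direction here is not independent evidence for that list. Nor are the 3 of 10 beside 7.11%, or the median of 0.39, independent evidence on the 10 genes.

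Map1lc3b, which had 116, 86.1, 72.0 and 78.2 CPM in CCl4 + siHAS2-LNP, did not pass (0.58, adjusted p = 0.150), nor did Map1lc3a (0.38), Tfeb (0.46), Sqstm1 (0.29), Lamp2 (0.27), Ulk1 (-0.18) or Becn1 (-0.20). Without CCl4 mouse 2 none passed (Gabarapl1 0.81, adjusted p = 0.251), and without CCl4 mouse 1 only Gabarapl1 did (1.43, adjusted p = 0.0141). Ambra1 lost the threshold under 10 of 12 other settings and Rab7 under 9 of 12. Of the hepatocyte markers 1 of 6 was higher, and 4 of 6 Kupffer cell markers, Clec4f, Timd4, Vsig4 and Marco, were lower, as were 3 of 6 stellate cell markers (Col1a1, Acta2 and Des), 2 of 4 proliferation markers (Top2a and Cdk1), 2 of 5 endothelial markers (Pecam1 and Kdr), 1 of 8 monocyte and macrophage markers (Cd68) and 1 of 5 ductal markers (Krt7). Their part in the result was not tested.

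No gene of the 10 passed with the control nanoparticle, and the siRNA groups under CCl4 were not told apart. In CCl4 + siLuc-LNP against CCl4, 0 of the 10 genes passed edgeR's test, where 0.248% of all genes were called. DESeq2 called 1, where it called 295 of all 14114 genes. An unadjusted p under 0.05 was found in 4, and the share of all genes with such a p is not given here. Gabarapl1 was at 0.59 (adjusted p = 0.332), Ambra1 at 0.41 (adjusted p = 0.271), Rab7 at 0.38 (adjusted p = 0.173) and Map1lc3b at 0.67 (adjusted p = 0.257). In CCl4 + siHAS2-LNP against CCl4 + siLuc-LNP, the comparison in which both groups received nanoparticles, 0 passed edgeR's test, where 1.09% of all genes were called. DESeq2 called 0. An unadjusted p under 0.05 was found in 1, again without the share of all genes. The differences were 0.52 for Gabarapl1 (95% confidence interval 0.07 to 0.97, adjusted p = 0.221), 0.12 for Ambra1 (-0.16 to 0.40) and 0.02 for Rab7 (-0.20 to 0.23). The rise of the same gene over CCl4 was 1.11 for Gabarapl1, 0.53 for Ambra1 and 0.40 for Rab7. Those estimates share the CCl4 + siHAS2-LNP libraries and have an error of their own. Whether they differ from the differences between the siRNA groups was not tested. In CCl4 + siLuc-LNP mouse 4 Gabarapl1 (71.1 CPM), Map1lc3a (12.7 CPM), Map1lc3b (55.0 CPM) and Tfeb (5.65 CPM) were the lowest of that group, and without this mouse 2 of the 10 genes passed against CCl4. The share of all genes called in that fit is not given here, so these 2 are a description only.

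**Figure D2:**
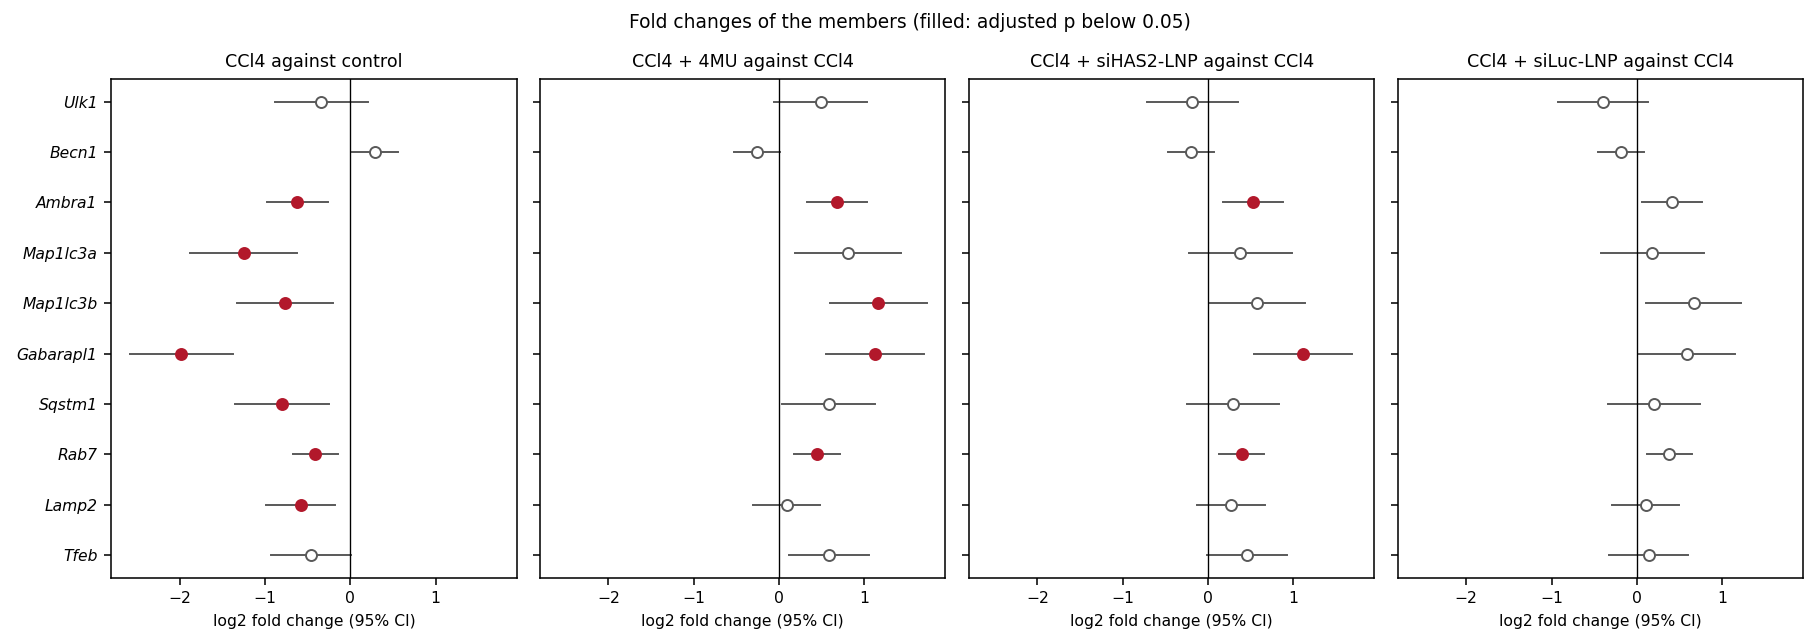
Log2 fold changes of the 10 genes in 4 comparisons, with lines for 95% confidence intervals from edgeR and red points where the adjusted p is under 0.05. In CCl4 against control 7 genes are lower, in CCl4 + 4MU against CCl4 4 are higher, in CCl4 + siHAS2-LNP against CCl4 3 are higher, and in CCl4 + siLuc-LNP against CCl4 none passes.

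Within each treatment CCl4 was also set against the matching olive oil group, which does not use the 2 CCl4 libraries. In CCl4 + 4MU against 4MU, 2 of the 10 genes were lower, where 23.7% of all genes were called and 10.5% were called lower. These were Gabarapl1 (-0.93, SE 0.233, adjusted p = 0.00502, edgeR) and Lamp2 (-0.55, SE 0.166, adjusted p = 0.0189, edgeR). In CCl4 + siLuc-LNP against siLuc-LNP, 3 were lower (24.2% and 11.2% of all genes), Gabarapl1 (-1.44, adjusted p = 7.56e-05), Map1lc3a (-1.11, adjusted p = 0.00233) and Ulk1 (-0.66, adjusted p = 0.0372). In CCl4 + siHAS2-LNP against siHAS2-LNP, 2 were lower (12.8% and 5.09%), Map1lc3a (-1.09, adjusted p = 0.00529) and Sqstm1 (-0.68, adjusted p = 0.0484), and Gabarapl1 was at -0.63 (adjusted p = 0.0781). Gabarapl1 in the 4MU and siLuc-LNP arms and Map1lc3a in the siLuc-LNP and siHAS2-LNP arms passed under all 12 other settings each. Sqstm1 in the siHAS2-LNP arm lost the threshold under 9 of 12, among them without any 1 of the 7 mice of its arm, Ulk1 in the siLuc-LNP arm under 7 of 12, among them without siLuc-LNP mouse 2 or 3 or CCl4 + siLuc-LNP mouse 1, 3 or 4, and Lamp2 in the 4MU arm under 3 of 12, among them without 4MU mouse 3 or CCl4 + 4MU mouse 4.

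Whether a treatment changed the effect of CCl4 was tested as an interaction. For 4MU and siLuc-LNP the reference was the effect in CCl4 against control. For siHAS2-LNP it was the effect in the siLuc-LNP arm, and siHAS2-LNP was not tested against the untreated groups. For 4MU, 2 of the 10 genes passed, where 5.67% of all genes were called and 2.72% were called higher. The interaction contains the difference of CCl4 + 4MU from CCl4, on which Gabarapl1, Ambra1 and Rab7 were listed from these same libraries. The count of 2 beside 2.72% is therefore not independent evidence on the 10 genes. Map1lc3b had 84.6, 73.7 and 101 CPM with 4MU alone, and its interaction was 1.38 (SE 0.359, adjusted p = 0.0320, edgeR). Ambra1 had 27.7, 23.7 and 18.2 CPM with 4MU alone, and its interaction was 0.81 (SE 0.226, adjusted p = 0.0387, edgeR). Gabarapl1 (1.05, adjusted p = 0.0790) and Rab7 (0.45, adjusted p = 0.102) did not pass. Ambra1 lost the threshold under 13 of 18 other settings and Map1lc3b under 7 of 18, among them without CCl4 mouse 2 (0.96 and 1.14, adjusted p = 0.111 and 0.207). For siLuc-LNP and siHAS2-LNP 0 passed edgeR's test (2 and 1 with an unadjusted p under 0.05, 0 by DESeq2), where 0.00709% and 0.0354% of all genes were called. The share of all genes with an unadjusted p under 0.05 is not given here.

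Without CCl4 the treatments left no change in these genes that passed. When 4MU and siLuc-LNP were each compared to control, and siHAS2-LNP to siLuc-LNP, 0 of the 10 genes passed edgeR's test, 0 had an unadjusted p under 0.05 and DESeq2 called 0, where 0.00709%, 0.213% and 0.0425% of all genes were called. The log2 fold changes of Gabarapl1 were 0.08 (95% confidence interval -0.40 to 0.56), 0.05 (-0.43 to 0.53) and -0.29 (-0.81 to 0.23), and those of Ambra1 -0.13 (-0.43 to 0.18), 0.08 (-0.23 to 0.38) and -0.23 (-0.55 to 0.10). A fall of Gabarapl1 by 1.24, its mean change with CCl4 over the arms, lay outside each interval. The widest difference was that of Lamp2, 0.34 (-0.03 to 0.71) in siHAS2-LNP against siLuc-LNP.

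The order of the 8 groups differed among the genes. CCl4 had the lowest mean of all groups for Ambra1, Map1lc3a, Map1lc3b, Gabarapl1, Sqstm1, Rab7, Lamp2 and Tfeb, the highest for Becn1 and the third lowest for Ulk1. The share of all genes with their lowest mean in CCl4, a group of 2 mice, was not counted, so this order is a description only. Mean Gabarapl1 was 397 ± 67.3 CPM with 4MU, 389 ± 44.7 with siLuc-LNP and 376 ± 59.4 in control, which did not differ beyond their spread. It was 318 ± 19.3 CPM with siHAS2-LNP, whose mice lay below all siLuc-LNP mice without passing the test, and then 208 ± 35.1 CPM with CCl4 + 4MU, 206 ± 35.9 with CCl4 + siHAS2-LNP, 144 ± 51.4 with CCl4 + siLuc-LNP and 95.4 ± 27.6 with CCl4. Mean Map1lc3b was 132 ± 29.1 CPM with CCl4 + 4MU, 100.3 ± 17.7 in control, 93.7 ± 32.9 with CCl4 + siLuc-LNP, 88.2 ± 19.7 with CCl4 + siHAS2-LNP and 59.1 ± 13.2 with CCl4. Tfeb (chromosome 17, 48047837 to 48103348) was the least abundant, and its mean was 10.1 ± 2.37 CPM in control, 7.37 ± 0.936 with CCl4, 11.0 ± 1.63 with CCl4 + 4MU, 10.2 ± 1.41 with CCl4 + siHAS2-LNP and 8.13 ± 1.71 with CCl4 + siLuc-LNP. Tfeb passed in none of the comparisons, and its values in the 3 treated oil groups lay between 8.64 and 14.5 CPM. Ambra1 lay between 20.9 and 31.0 CPM with siHAS2-LNP or siLuc-LNP alone and between 17.4 and 25.6 CPM with CCl4 + siLuc-LNP, and Rab7 lay between 120.5 and 159 CPM in the 3 treated oil groups and between 127 and 139.7 CPM with CCl4 + siLuc-LNP.

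The remaining genes of the ATG8 family had smaller differences with CCl4 than Gabarapl1. Gabarap, the founding gene of its branch, was lower over the arms by 0.28 (SE 0.0671, adjusted p = 0.00105, edgeR) and at -0.23 (adjusted p = 0.237) in CCl4 against control, and Gabarapl2 was at -0.17 (adjusted p = 0.0962) and -0.12 (adjusted p = 0.662). In CCl4 + 4MU against CCl4 Gabarap was at -0.05 (95% confidence interval -0.36 to 0.25) and Gabarapl2 at -0.09 (-0.48 to 0.30), where Gabarapl1 rose by 1.12. The interval of Gabarap leaves out a rise of that size, and so does that of Gabarapl2. In control livers Gabarap was at 98.3 ± 8.21 CPM per kilobase, close to Gabarapl1, and in CCl4 livers Gabarapl1 was at 25.8 ± 7.47. Lamp1, the relative of Lamp2, was at 0.09 over the arms, -0.20 in CCl4 against control and 0.47 (adjusted p = 0.0557) in CCl4 + 4MU against CCl4, and in no main comparison did it pass.

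**Figure D3:**
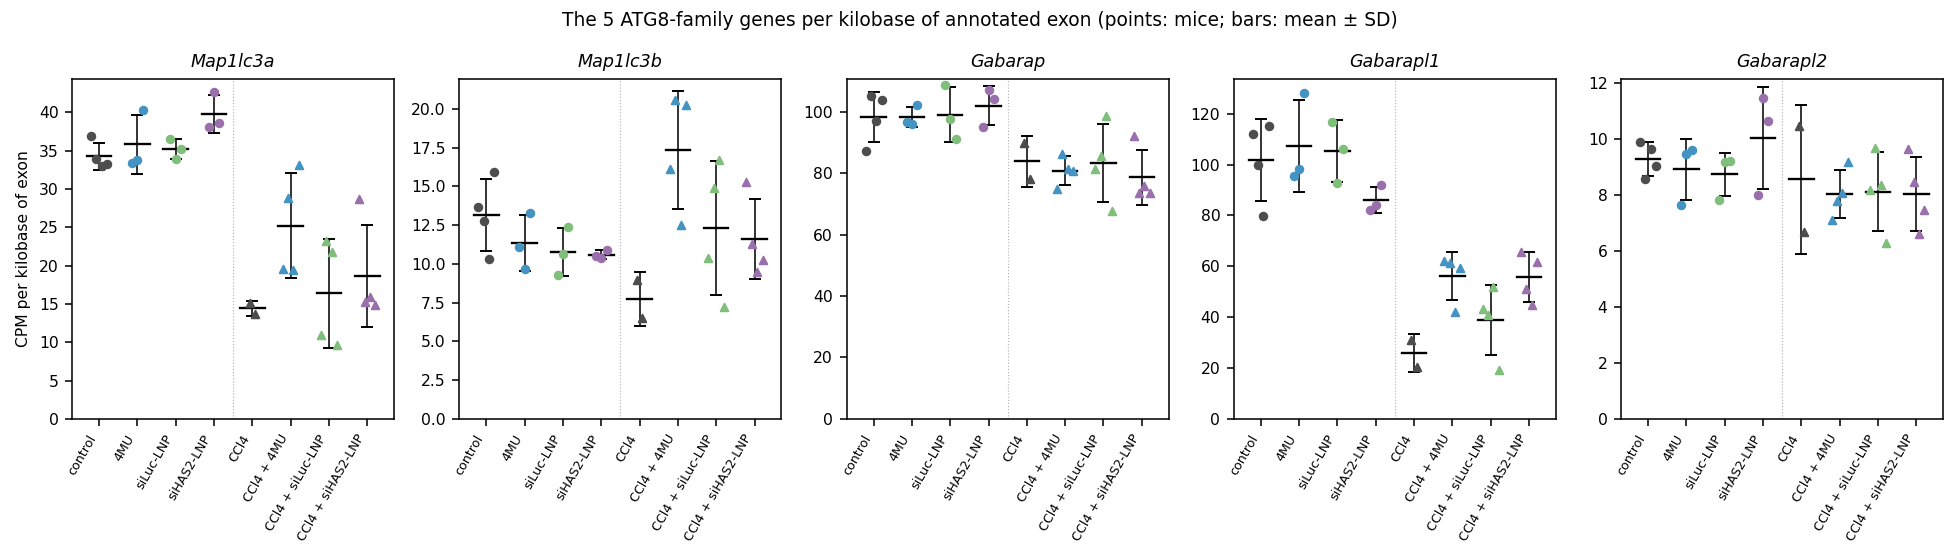
Levels of the 5 ATG8-family genes in CPM per kilobase of annotated exon for each mouse, with mean and SD of the 8 groups, on an axis from 0 in every panel. Gabarapl1 falls from 101.7 in control to 25.8 in CCl4, while the log2 differences of Gabarap (-0.23) and Gabarapl2 (-0.12) did not pass the test.

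With the 10 genes included, 141 genes of the pathway were read in 11 lists, 67 of autophagy and 74 of the lysosome, and all were tested. Over the arms CCl4 left 0 of the 67 autophagy genes higher and 33 lower (median -0.21), and in CCl4 against control 0 were higher and 24 lower (median -0.37), although under scaling by totals, where the typical gene rose, the counts were 9 and 14, and 7 and 7. The share called lower over the arms, 49.3%, stands beside 25.6% of all genes. Of 17 genes of membrane expansion and conjugation 9 were lower, with Wdr45 at -0.65, Atg10 at -0.64 and the conjugating enzyme gene Atg3 at -0.58. Of 13 cargo receptors 8 were lower, with Bnip3 at -0.80 and Retreg1 at -0.59, which serve mitochondria and the endoplasmic reticulum, and the mitophagy kinase gene Pink1 was at -0.53. Of 12 genes of fusion 5 were lower, with the SNARE gene Snap29 at -0.38, of 5 genes of the initiating kinase complex 3, and of 7 of the nucleation complex 2.

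The lysosome lists held genes of both directions, as did all genes. Over the arms 25 of the 74 were higher and 17 lower (33.8% and 23.0%, beside 26.3% and 25.6% of all genes, median 0.00), and in CCl4 against control 18 were higher and 8 lower (24.3% and 10.8%, beside 18.0% and 16.1%), while under scaling by totals 34 were higher and 3 lower, and 30 and 2. Of 44 hydrolases and cofactors 18 were higher, with the collagen-degrading cathepsin K gene Ctsk at 3.12, Galns at 1.57 and Arsb at 1.10, and 8 were lower, with Ctsf and Idua at -0.46 and Gaa at -0.34. Of 13 membrane proteins Cd63 (3.11) and Laptm5 (0.67), the latter a gene of blood-derived cells, were higher, and 4 were lower, among them Ctns, Lamp2 and Mcoln1. Of 17 subunits of the vacuolar ATPase 5 were higher and 5 lower, with Atp6v1a at 0.40 and Atp6v0d2 at -0.51. Ctsk, Cd63 and Laptm5 rose beside the summed macrophage and stellate cell markers given above, and the part of those cells was not tested.

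In CCl4 + 4MU against CCl4, 16 of the 67 autophagy genes were higher and 0 lower (median 0.27), with 13 and 4 of the 74 lysosome genes (23.9% of the autophagy genes and 17.6% of the lysosome genes higher, beside 8.28% of all genes, and 4 of 74 lysosome genes lower, beside 1412 of all 14114), and under scaling by totals 4 and 3, and 3 and 12. Calcoco1, a receptor gene of the same list as Sqstm1, was higher by 1.37 (adjusted p = 0.00645, edgeR), and in CCl4 against control it was lower by 1.40. Ctns, the cystine exporter of the lysosome, was higher by 1.04 and in CCl4 against control lower by 1.04. The 2 differences of each gene use the same CCl4 libraries with opposite sign, so they are not independent. In CCl4 + 4MU against CCl4 the hydrolase genes Ctsf (1.04) and Ctsa (0.93) rose and Gla fell by 0.69. In CCl4 + siHAS2-LNP against CCl4, 7 of 67 were higher and 1 lower, with 3 and 5 of 74 (10.4% and 4.05% higher, beside 7.11% of all genes, and 1.49% and 6.76% lower, beside 7.33%). When the 10 genes were left out, 4 of 58 autophagy genes were higher here (6.90%), near the share of all genes. In CCl4 + 4MU against CCl4 it was then 12 of 58 (20.7%, beside 8.28% of all genes). Calcoco1 (1.13), Ctns (0.91) and Zkscan3 (1.16), a repressor of autophagy genes, rose, and Lgmn fell by 0.76, Fundc1 by 0.76 and Cd63 by 1.11. Zkscan3 alone of the 141 was higher in CCl4 + siHAS2-LNP than in CCl4 + siLuc-LNP, by 0.62 (SE 0.132, adjusted p = 0.0318, edgeR), and it lost the threshold under 6 of 14 other settings, among them with the fit of the compared groups alone (adjusted p = 0.164), with a replicate block (0.0569), and without CCl4 + siHAS2-LNP mouse 3 (0.158) or 4 (0.0630) or CCl4 + siLuc-LNP mouse 1 or 4 (0.0796 without mouse 4). Without CCl4 mouse 2 the autophagy genes called were 0 higher in CCl4 + 4MU and 1 higher in CCl4 + siHAS2-LNP, and 8 lower in CCl4 against control.

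**Figure D4:**
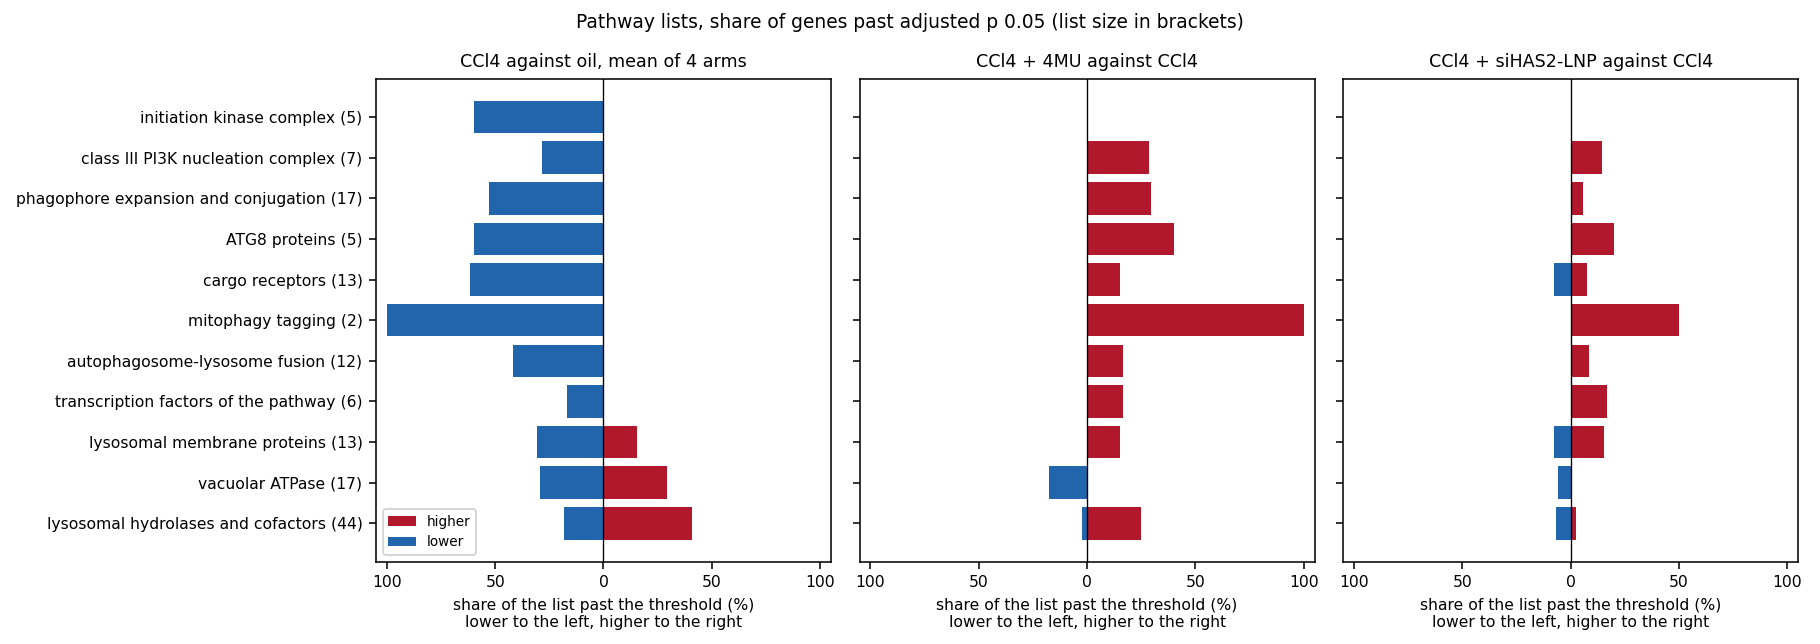
Share of the genes of each of 11 pathway lists, in percent, with an adjusted p under 0.05 in edgeR, lower to the left in blue and higher to the right in red, with the number of genes of each list in brackets. The 8 autophagy lists have bars only to the left for the mean of the arms, with 33 of 67 genes lower, and only to the right for CCl4 + 4MU against CCl4, with 16 of 67 higher, while under scaling by totals genes lie on both sides in both comparisons.

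The genes most alike in pattern were taken as those with the highest Pearson correlation of log2 CPM with the gene over the 8 group means, which share the libraries and the contrast of CCl4 with olive oil, so high values are common. For Gabarapl1 these were Prorp and Cdo1 (both r = 0.997), for Ambra1 Calcoco1 (0.991) and Pex14 (0.978), for Map1lc3a Ctcflos (0.996), for Sqstm1 Acbd4 (0.996), for Rab7 Akr1d1 (0.984), for Lamp2 Mpp4 (0.993), for Tfeb Kansl3 (0.988), for Map1lc3b Plbd2 (0.974), for Becn1 Spty2d1 (0.973) and for Ulk1 Ilrun (0.965). Of these Calcoco1 and Plbd2 were also on the pathway lists.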

How the data were processed

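RNA was measured in total liver of 27 mice in 8 groups. Per the labels and methods, polyadenylated RNA was sequenced in paired ends, trimmed with Trimmomatic 0.39, aligned with HISAT2 to GRCm39 and counted per gene with featureCounts without multi-mapped reads. The HISAT2 version and the strand setting are not given in the sources used here. The authors deposited raw counts of read pairs per gene. From these counts, edgeR 4.0.16 in R 4.3.3 was run here with TMM scaling and the quasi-likelihood test on the 14114 genes that averaged 10 counts or more over the libraries, in 1 fit over all 27 libraries with group as the only term, adjusted by Benjamini-Hochberg at 0.05. Standard errors are the log2 fold change divided by the square root of F. DESeq2 1.42.0 and other settings served as alternatives. The fit was tested on simulated data. Symbols, coordinates and exon lengths came from GENCODE vM39 (54749 of 55414 identifiers matched), promoters from RefSeq on GRCm38.p6, with no conversion of coordinates. Totals of 7044386 to 29425937 read pairs set the counting precision. No pair of libraries of a group was a duplicate. Replicate numbers did not pair mice across groups, and p-values measure the spread between these mice. The 10 genes, the pathway lists and the marker lists were chosen with earlier results of these data known. Named genes were all 10, their near relatives, and from the lists genes past the threshold with the largest changes, and the 2 genes most alike to each. Values of some genes on these lists are not reported here.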

Additional observations from a re-analysis of the deposited data

Results flagged for a closer look

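Map1lc3a in CCl4 + siHAS2-LNP mouse 1 was at 37.7 CPM, far above the other 3 mice of its group, which lay between 19.5 and 20.95 CPM. Gabarapl1 in CCl4 + 4MU mouse 3 was at 155 CPM, below the other 3 mice at 220 to 229 CPM. The gap was looked for in 40 pairs of a gene and a group, of which about 5% would stand out by chance, and 2 did.

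The test for a different effect of 4MU with and without CCl4 passed for Ambra1, with an interaction of 0.81 on the log2 scale (adjusted p = 0.0387, edgeR). It also passed for Map1lc3b, with an interaction of 1.38 (adjusted p = 0.0320, edgeR). Ambra1 lost the threshold under 13 of 18 other settings and Map1lc3b under 7 of 18. Ambra1 also stands in the list drawn up from these same libraries, so its value is not independent evidence. In the olive oil groups 4MU changed Ambra1 by -0.13 and Map1lc3b by -0.21, neither past the threshold. Without CCl4 mouse 2 neither interaction passed (0.96 for Ambra1 and 1.14 for Map1lc3b).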

How the results depend on the processing

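Gabarapl1, Map1lc3a and Sqstm1 stayed lower with CCl4 over the arms, past the threshold, under all 33 alternatives, and Gabarapl1 in CCl4 against control under all 12. Scaling by totals, applied after the TMM factors were seen to differ between groups, left 3 genes called in CCl4 against control (2 lower, and Becn1 higher), 3 in CCl4 + 4MU against CCl4 (2 higher, and Becn1 lower), 1 in CCl4 + siHAS2-LNP against CCl4 and 1 in CCl4 + siHAS2-LNP against siHAS2-LNP, and of the 28 calls 14 were kept, 13 were lost and 1 more was lost with its sign turned. The other settings for the within-arm comparisons, the interactions and the pathway lists were also chosen after seeing the data. In CCl4 + siHAS2-LNP against CCl4, 1 gene was called without the filter on low counts and 1 with only the compared groups. DESeq2 called 1 gene in CCl4 + siLuc-LNP against CCl4 and 4 in the 4MU interaction, and of all genes 295 and 35 were called by DESeq2 and edgeR in CCl4 + siLuc-LNP against CCl4, and 412 and 154 in CCl4 + siHAS2-LNP against CCl4 + siLuc-LNP. The cause of these changes was not tested. For the 4MU interaction the share of all genes called by DESeq2 is not given here.

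With 1 library left out, the genes called ranged from 4 to 7 in the mean of the arms, 2 to 7 in CCl4 against control, 0 to 5 in CCl4 + 4MU against CCl4, 0 to 2 in CCl4 + siHAS2-LNP against CCl4, 0 to 2 in CCl4 + siLuc-LNP against CCl4, 1 to 3 in CCl4 + 4MU against 4MU, 2 to 4 in CCl4 + siLuc-LNP against siLuc-LNP, 1 to 1 in CCl4 + siHAS2-LNP against siHAS2-LNP and 0 to 2 in the 4MU interaction. The 0 called in the 4MU interaction came without control mouse 1 or 4, 4MU mouse 2, CCl4 mouse 2, or CCl4 + 4MU mouse 1, 2 or 4. The 1 in CCl4 + 4MU against 4MU came without 4MU mouse 3 or CCl4 + 4MU mouse 4. In CCl4 + siHAS2-LNP against CCl4, 1 was called without CCl4 + siHAS2-LNP mouse 1, 3 or 4.

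A replicate block left 1 gene called in CCl4 + siHAS2-LNP against siHAS2-LNP and 1 in the 4MU interaction, and 4 calls of the 28 were lost. The numbers do not pair the mice, since libraries of the same number had a median correlation of -0.0213 of their deviations and 18 of 83 pairs were over 0.1. Of 27 libraries 5 were closest to one of their own number.

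Under scaling by totals the sign turned for Ambra1 0.0078, Rab7 0.070 (CCl4 against oil, mean of 4 arms) and for Ulk1 0.071, Rab7 0.0029 (CCl4 against control) and for Lamp2 -0.23 (CCl4 + 4MU against CCl4) and for Map1lc3a -0.11, Sqstm1 -0.048, Lamp2 -0.096, Tfeb -0.12 (CCl4 + siLuc-LNP against CCl4) and for Becn1 0.033, Map1lc3b 0.022 (CCl4 + siHAS2-LNP against CCl4 + siLuc-LNP) and for Rab7 0.086 (4MU against control) and for Sqstm1 0.030 (siLuc-LNP against control). With DESeq2 the sign turned for Rab7 -0.010 (CCl4 + siHAS2-LNP against CCl4 + siLuc-LNP). With DESeq2 size factors in edgeR the sign turned for Rab7 -0.0099 (CCl4 + siHAS2-LNP against CCl4 + siLuc-LNP). Without the filter on low counts the sign turned for Rab7 -0.0019 (CCl4 + siHAS2-LNP against CCl4 + siLuc-LNP). With the fit limited to the compared groups the sign turned for Rab7 -0.0076 (CCl4 + siHAS2-LNP against CCl4 + siLuc-LNP) and for Rab7 0.0033 (4MU against control). In CCl4 against oil, mean of 4 arms, the values with 1 library left out spanned 0 for Map1lc3b -0.0099 to 0.098. In CCl4 + 4MU against CCl4, the values with 1 library left out spanned 0 for Lamp2 -0.12 to 0.28. In CCl4 + siLuc-LNP against CCl4, the values with 1 library left out spanned 0 for Map1lc3a -0.034 to 0.36, Sqstm1 -0.010 to 0.43, Lamp2 -0.086 to 0.31. In CCl4 + siHAS2-LNP against CCl4 + siLuc-LNP, the values with 1 library left out spanned 0 for Becn1 -0.097 to 0.037, Map1lc3a -0.090 to 0.41, Map1lc3b -0.29 to 0.069, Sqstm1 -0.031 to 0.20, Rab7 -0.034 to 0.041. In 4MU against control, the values with 1 library left out spanned 0 for Ulk1 -0.035 to 0.36, Ambra1 -0.28 to 0.018, Map1lc3a -0.028 to 0.11, Gabarapl1 -0.071 to 0.15, Sqstm1 -0.16 to 0.30, Rab7 -0.13 to 0.078, Lamp2 -0.019 to 0.13, Tfeb -0.0014 to 0.25. In siLuc-LNP against control, the values with 1 library left out spanned 0 for Ulk1 -0.21 to 0.17, Becn1 -0.024 to 0.16, Ambra1 -0.045 to 0.14, Gabarapl1 -0.055 to 0.13, Sqstm1 -0.13 to 0.16, Tfeb -0.041 to 0.34. In siHAS2-LNP against siLuc-LNP, the values with 1 library left out spanned 0 for Ulk1 -0.27 to 0.013, Becn1 -0.096 to 0.085, Map1lc3b -0.12 to 0.092, Tfeb -0.32 to 0.031. Of these results only Rab7 in CCl4 against control was called under TMM. The lowest count of any of the 10 genes in a library was 84, and the CCl4 group held 2 mice.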
